A study of Homo sapiens with 16 samples.

Results

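The ERK pathway output and feedback genes are 10 genes taken by symbol (*DUSP4*, *DUSP6*, *SPRY2*, *SPRY4*, *SPRED1*, *ETV4*, *ETV5*, *PHLDA1*, *EPHA2* and *EPHA4*) out of 34228 genes with counts. The rule itself uses no measured value. RNA-Seq was performed on 451Lu-R and 1205Lu-R, human melanoma cell lines made resistant to BRAF inhibition (BRAFi-R) by months of growth in rising PLX4032 and kept in PLX4032 at 5 μM. The 4 groups with counts are 451Lu-R with DMSO, 451Lu-R with 2.5 μM corin, 1205Lu-R with DMSO and 1205Lu-R with 2.5 μM corin, each treated for 24 hours and each with 2 libraries. Corin is a bifunctional inhibitor of the LSD1 demethylase and the class I histone deacetylases of the CoREST repressor complex. For the libraries with 5 μM PLX4032, alone or with corin, no counts were used, so all values below are for cells given no PLX4032 during treatment as far as the labels say. The lines differ in melanoma phenotype (MITF-high in 451Lu-R, AXL-high in 1205Lu-R) and each phenotype has 1 line, so phenotype and line cannot be told apart. Nothing says that the replicates were separate cultures, so p-values measure only the spread between these libraries.

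Growth factor receptors, or mutant BRAF in melanoma, drive RAF and MEK to activate the kinase ERK, which turns on a set of genes that rise and fall with its activity. Many of them act back on the pathway: the dual specificity phosphatases (DUSP) remove phosphate from MAP kinases, and Sprouty and SPRED proteins block signaling between receptors and RAF. In BRAF-mutant melanoma this group, with the ETS factors ETV4 and ETV5, is used as a transcript readout of pathway activity. Still, a transcript level is not a measurement of ERK phosphorylation, and no ERK phosphorylation was analysed here. From Western blots of both lines, the paper reported that corin did not significantly change ERK activation.

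The sequence before the start site is shown for 4 members with distinct patterns: *DUSP6* rose in both lines, *SPRED1* and *PHLDA1* moved in opposite directions, and *EPHA2* differed most between the lines. Promoter windows from RefSeq (GRCh38.p14) matched 7 of the 10 members, and the set used here held no window for *DUSP4*, *ETV4* and *ETV5*. The windows are the 250 bases before the start, at chr12:89352502-89352751 (minus strand) for *DUSP6*, chr15:38252586-38252835 (plus strand) for *SPRED1*, chr12:76031777-76032026 (minus strand) for *PHLDA1* and chr1:16156070-16156319 (minus strand) for *EPHA2*. They are written 5′ to 3′ on the gene's strand, and capitals mark a match on either strand to CCGGAA or CAGGAA (ETS cores), TGANTCA (AP-1) or TGACGTCA (the cAMP response element).
DUSP6: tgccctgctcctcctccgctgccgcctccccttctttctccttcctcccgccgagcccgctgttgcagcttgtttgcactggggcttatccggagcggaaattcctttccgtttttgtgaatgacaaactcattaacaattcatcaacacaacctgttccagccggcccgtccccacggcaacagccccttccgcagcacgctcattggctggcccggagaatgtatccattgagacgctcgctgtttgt
SPRED1: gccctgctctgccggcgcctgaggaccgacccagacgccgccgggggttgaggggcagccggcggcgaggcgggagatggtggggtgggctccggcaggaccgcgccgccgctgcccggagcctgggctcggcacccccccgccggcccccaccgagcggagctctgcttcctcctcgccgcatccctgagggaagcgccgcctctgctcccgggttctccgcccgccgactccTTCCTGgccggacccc
PHLDA1: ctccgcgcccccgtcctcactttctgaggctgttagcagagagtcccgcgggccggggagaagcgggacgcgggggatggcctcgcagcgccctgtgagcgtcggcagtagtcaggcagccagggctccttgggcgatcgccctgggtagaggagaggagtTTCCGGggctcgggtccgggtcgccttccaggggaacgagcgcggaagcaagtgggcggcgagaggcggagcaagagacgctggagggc
EPHA2: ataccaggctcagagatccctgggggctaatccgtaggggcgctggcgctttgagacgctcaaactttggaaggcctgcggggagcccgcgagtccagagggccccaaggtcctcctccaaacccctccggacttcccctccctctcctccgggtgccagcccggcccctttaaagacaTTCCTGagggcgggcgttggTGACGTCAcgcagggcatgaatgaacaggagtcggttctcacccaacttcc

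No match to the 4 motifs lay in the *DUSP6* window. *SPRED1* held 1 CAGGAA on the opposite strand and *PHLDA1* held 1 CCGGAA on the opposite strand. *EPHA2* held 1 CAGGAA on the opposite strand and 1 TGACGTCA, which reads the same on both strands. Among all 35116 promoter windows of this length, 14.5% held CCGGAA, 24.1% CAGGAA, 6.57% TGANTCA and 1.65% TGACGTCA. These matches are a description of the letters and were not tested against the response. Over the 10 windows of the 7 members the median GC content was 64.4%, against 58.0% over all windows.

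All 10 members had enough counts to be tested in every comparison. Levels are given as CPM, counts scaled to a common library size with TMM factors, and libraries held from 9516687 to 11797788 estimated counts. As a check on the labelled lines, 8 melanocytic markers summed to 13040 CPM in each 451Lu-R library with DMSO but to 8.90 and 8.59 CPM in 1205Lu-R with DMSO, where *SOX10* and *TYR* were at 0 in both treatments. The 7 genes of the AXL-high melanoma state summed to 15.2 and 14.7 CPM in 451Lu-R with DMSO and to 5146 and 5179 CPM in 1205Lu-R with DMSO. With corin the latter sum was 430 and 423 CPM for 451Lu-R, while 1205Lu-R had 14220 and 14100 CPM. The 11 measured markers of blood, endothelial, keratinocyte and fibroblast cells summed to between 11.8 and 133 CPM, and the part of any of these genes in the results below was not tested. In bulk RNA, fewer cells of a kind and less RNA per cell cannot be told apart.

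In 451Lu-R, corin raised 6 of the 10 members and lowered 3 at an adjusted p under 0.05, and 1 was not called. In that comparison 41.3% of the 14530 genes tested were called higher and 38.6% lower, so the share of members called, 9 of 10, stands beside a background of 79.9%. In 1205Lu-R, corin raised 4 members and lowered 4, and 2 were not called, against a background of 78.3% (40.4% higher and 37.8% lower). The members had a median log2 fold change of 0.64 in 451Lu-R, against -0.05 for 1205Lu-R, while over all genes it was 0.03 in both lines. Taking size without sign, the median was 0.92 over the members and 0.69 over all genes in 451Lu-R, against 0.43 and 0.63 for 1205Lu-R. With a change of at least 2-fold also required, 3 members were higher and 1 lower in 451Lu-R (background 35.6%, of which 22.2% higher and 13.3% lower). In 1205Lu-R 1 was higher and 0 lower (background 31.8%, of which 22.0% higher and 9.80% lower).

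The members did not move as a block. *DUSP6*, *EPHA2* and *EPHA4* rose with corin in both lines, and *SPRY4* and *ETV4* fell in both. *SPRED1* and *PHLDA1* rose in 451Lu-R but fell in the other line, and *ETV5* did the reverse. *DUSP4* rose in 451Lu-R and missed the threshold in 1205Lu-R, and *SPRY2* missed it in both. The difference between the lines in the response to corin was tested with an interaction term in edgeR, which called 3 members higher and 5 lower in 1205Lu-R against a background of 49.7% of 16062 genes (22.6% higher and 27.1% lower). At 2-fold or more, 0 members were higher and 4 lower by this term, beside a background of 18.8% (9.34% higher and 9.46% lower). The mean log2 CPM over the 10 members was 6.18 and 6.23 in the 451Lu-R libraries with DMSO, and corin libraries had 6.74 and 6.75. For 1205Lu-R, DMSO libraries had means of 7.42 and 7.39 and corin libraries 7.41 and 7.38.

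**Figure D1:**
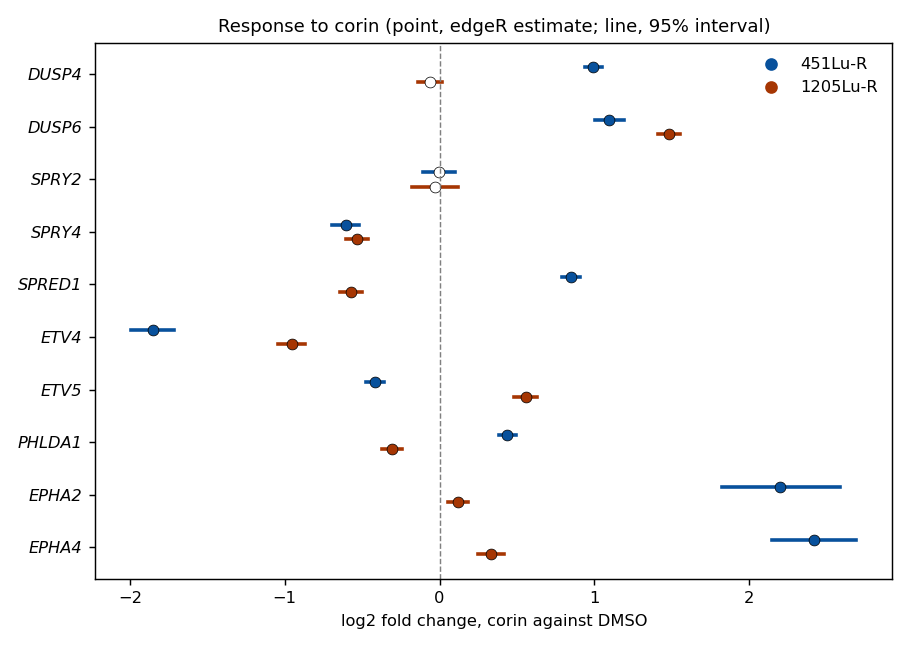
Log2 fold change of each member with corin against DMSO on the x axis, for 451Lu-R (blue) and 1205Lu-R (brown), as the edgeR estimate with its 95% interval, where open points did not reach an adjusted p of 0.05. In 451Lu-R the values run from -1.85 (*ETV4*) to 2.42 (*EPHA4*), and in 1205Lu-R from -0.96 (*ETV4*) to 1.48 (*DUSP6*).

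*DUSP6*, which encodes a cytoplasmic phosphatase selective for ERK, was the member that rose most in 1205Lu-R. DMSO libraries of 451Lu-R held 72.6 and 68.1 CPM, and corin libraries 150 and 157 CPM. DMSO libraries of 1205Lu-R held 206 and 208 CPM, and corin libraries 587 and 556 CPM. Every corin library lay above every DMSO library of its line. The log2 fold change was 1.10 (SE 0.0448, edgeR adjusted p = 1.41e-14) for 451Lu-R, against 1.48 (SE 0.034, adjusted p = 5.3e-20) for 1205Lu-R. The rise was larger in 1205Lu-R by 0.35 on the log2 scale (95% interval 0.21 to 0.48, interaction adjusted p = 0.000124). The lines also differed without corin, where *DUSP6* was 2.90-fold higher in 1205Lu-R (log2 difference 1.54, adjusted p = 6.19e-21), and with corin it was 3.73-fold higher.

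*DUSP4*, a nuclear phosphatase of MAP kinases encoded on chromosome 8, responded in 451Lu-R. Its level there was 254 and 243 CPM with DMSO, and corin brought it to 499 and 508 CPM. In 1205Lu-R the DMSO libraries held 151 and 153 CPM and the corin libraries 144 and 143 CPM. The groups did not overlap in either line, but the gap in 1205Lu-R was small. The rise in 451Lu-R was 1.99-fold (log2 fold change 0.99, SE 0.0265, edgeR adjusted p = 1.46e-17). For 1205Lu-R the estimate was -0.06 (95% interval -0.14 to 0.01, adjusted p = 0.12), and it became a call, at -0.11 with an adjusted p of 0.019, when no filter on low counts was applied. The difference in response was -1.09 (interaction adjusted p = 8.69e-14). *DUSP4* was 1.66-fold lower in 1205Lu-R than in 451Lu-R with DMSO and 3.51-fold lower with corin, the opposite order of the lines to that of *DUSP6*.

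*SPRY4*, a Sprouty inhibitor of signaling from receptor tyrosine kinases, fell in both lines. The libraries of 451Lu-R held 127 and 126 CPM with DMSO, and corin left 84.8 and 84.2 CPM. Those of 1205Lu-R held 287 and 276 CPM with DMSO, and corin left 197 and 189 CPM. Corin libraries lay below DMSO libraries in each line, and 1205Lu-R lay above 451Lu-R in each treatment. *SPRY4* fell by 0.61 (SE 0.0418, edgeR adjusted p = 5.95e-11) in log2 units in 451Lu-R, and 1205Lu-R fell by 0.53 (SE 0.0342, adjusted p = 3.92e-12). The difference between these responses was 0.03, with a 95% interval from -0.08 to 0.15 (interaction adjusted p = 0.661). With library totals in place of TMM, a scaling that moved the median difference over all genes by 0.21, it was 0.25 with an adjusted p of 0.000824.

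*SPRY2*, another Sprouty inhibitor, was the member with the smallest changes. With DMSO and corin it stood at 91.3 and 83.0 CPM against 87.8 and 89.4 CPM in 451Lu-R. In 1205Lu-R the values were 38.0 and 35.6 CPM against 36.1 and 35.3 CPM. The treatment groups overlapped within each line, and the lines did not overlap. The log2 fold change with corin was -0.0023 (95% interval -0.11 to 0.10, edgeR adjusted p = 0.968) in 451Lu-R, against -0.03 (95% interval -0.18 to 0.12, adjusted p = 0.722) in 1205Lu-R. *SPRY2* was 2.40-fold lower in 1205Lu-R with DMSO (adjusted p = 1.49e-15) and 2.49-fold lower with corin (adjusted p = 2.5e-13).

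*SPRED1*, a membrane-bound inhibitor that works with neurofibromin to hold back RAS, moved in opposite directions. In 451Lu-R it stood at 175 and 176 CPM with DMSO, against 322 and 321 CPM with corin. The libraries of 1205Lu-R held 206 and 203 CPM with DMSO, against 136 in both with corin. The replicates of a group lay within 3 CPM of each other, and no groups overlapped. *SPRED1* rose 1.80-fold in 451Lu-R (log2 fold change 0.85, SE 0.0287, edgeR adjusted p = 6.54e-16) but fell 1.49-fold in 1205Lu-R (log2 fold change -0.57, SE 0.035, adjusted p = 1.73e-12). The responses differed by -1.46 (95% interval -1.56 to -1.36, interaction adjusted p = 2.02e-16). With DMSO it was 1.15-fold higher in 1205Lu-R (adjusted p = 8.53e-06), and with corin it was 2.37-fold lower there (adjusted p = 7.64e-17).

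*ETV4*, an ETS transcription factor of the PEA3 group, was the member that fell most in both lines. From DMSO to corin, 451Lu-R went from 92.3 and 88.2 CPM to 25.2 and 25.7 CPM. The other line went from 150 and 144 CPM to 76.6 and 73.6 CPM. Its lowest level was in 451Lu-R with corin, and no groups overlapped. The fall was 3.61-fold in 451Lu-R (log2 fold change -1.85, SE 0.0649, edgeR adjusted p = 1.15e-15) and 1.94-fold in 1205Lu-R (log2 fold change -0.96, SE 0.0425, adjusted p = 5.88e-15). The smaller fall in 1205Lu-R gave a difference in response of 0.86 (interaction adjusted p = 6.58e-09). *ETV4* overlaps *DHX8* on the opposite strand, a gene with 464 to 715 estimated counts per library, and whether reads were assigned by strand is not given in the sources used here.

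*ETV5*, the related PEA3 factor, did not follow *ETV4*. Its level in 451Lu-R was 365 and 371 CPM with DMSO, against 284 and 276 CPM with corin. Its level in 1205Lu-R was 159 and 156 CPM with DMSO, against 224 and 235 CPM with corin. The groups were separate within each line and moved toward each other with corin. *ETV5* fell by 0.42 (SE 0.0271, edgeR adjusted p = 2.23e-11) in log2 units in 451Lu-R but rose by 0.56 (SE 0.0359, adjusted p = 4.09e-12) in 1205Lu-R, a difference in response of 0.94 (interaction adjusted p = 6.91e-13). In 1205Lu-R it was 2.37-fold lower than in 451Lu-R with DMSO and 1.22-fold lower with corin. The third factor of this group, *ETV1*, had an estimate of 0.10 in 451Lu-R (adjusted p = 0.212) and rose by 0.49 (adjusted p = 3.18e-07) in 1205Lu-R. *ETV5* overlaps *DGKG* on the same strand, which had 55 to 204 estimated counts per library.

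*PHLDA1*, which encodes a pleckstrin homology-like protein induced by growth factor signaling, showed the narrowest span over the 4 groups, 1.82-fold from lowest to highest. With DMSO and corin it stood at 270 and 262 CPM against 366 and 367 CPM in 451Lu-R. In 1205Lu-R it stood at 501 and 470 CPM against 394 and 383 CPM. The lines moved toward each other. It rose by 0.44 (SE 0.0262, edgeR adjusted p = 6.86e-12) in log2 units in 451Lu-R but fell by 0.31 (SE 0.0316, adjusted p = 1.17e-08) in 1205Lu-R, and the responses differed by -0.78 (interaction adjusted p = 8.4e-12). Of its relatives, *PHLDA2* rose by 2.57 and 1.19 in the lines and *PHLDA3* fell by 0.74 and 1.49. *PHLDA1* was 1.80-fold higher in 1205Lu-R with DMSO. With corin it was 1.06-fold higher (log2 fold change 0.08, adjusted p = 0.0121), and this call was lost without 451Lu-R corin replicate 1 (0.07, adjusted p = 0.0788), without 451Lu-R corin replicate 2 (0.07, adjusted p = 0.0534) and without 1205Lu-R corin replicate 1 (0.07, adjusted p = 0.0662).

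*EPHA2*, a receptor tyrosine kinase for ephrin-A ligands, separated the lines more than any other member. The libraries of 451Lu-R held 2.54 and 4.23 CPM with DMSO, from 29 and 43 estimated counts, and 16.0 and 15.2 CPM with corin, from 182 and 147. Those of 1205Lu-R held 274 and 273 CPM with DMSO, and corin gave 298 and 291 CPM. The level of 451Lu-R thus rose from a low start and stayed far below that of 1205Lu-R in both treatments. With DMSO *EPHA2* was 80.7-fold higher in 1205Lu-R (log2 difference 6.33, SE 0.082, edgeR adjusted p = 7.83e-28), and with corin 18.7-fold higher (4.23, SE 0.0512, adjusted p = 1.21e-21). Corin raised it 4.60-fold in 451Lu-R (log2 fold change 2.20, SE 0.182, adjusted p = 9.82e-10) and 1.09-fold in 1205Lu-R (0.12, SE 0.0311, adjusted p = 0.00138). Leaving out 1 library at a time gave values from 1.85 to 2.59 in 451Lu-R, the widest range of any member in that comparison.

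*EPHA4*, a receptor for both classes of ephrins, had the same order of groups. It stood at 4.56 and 5.11 CPM with DMSO in 451Lu-R, from 52 estimated counts in each library, and at 25.2 and 27.3 CPM with corin. The libraries of 1205Lu-R held 97.1 and 95.2 CPM with DMSO, and corin gave 123 and 117 CPM. The corin libraries were above the DMSO libraries in each line, by a wide gap in 451Lu-R. The rise was 5.34-fold in 451Lu-R (log2 fold change 2.42, SE 0.13, edgeR adjusted p = 1.08e-12) and 1.26-fold in 1205Lu-R (0.33, SE 0.0414, adjusted p = 2.25e-07). For both receptors the response was smaller in 1205Lu-R, by -2.12 for *EPHA2* (interaction adjusted p = 1.12e-09) and by -2.12 for *EPHA4* (interaction adjusted p = 8.75e-12).

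**Figure D2:**
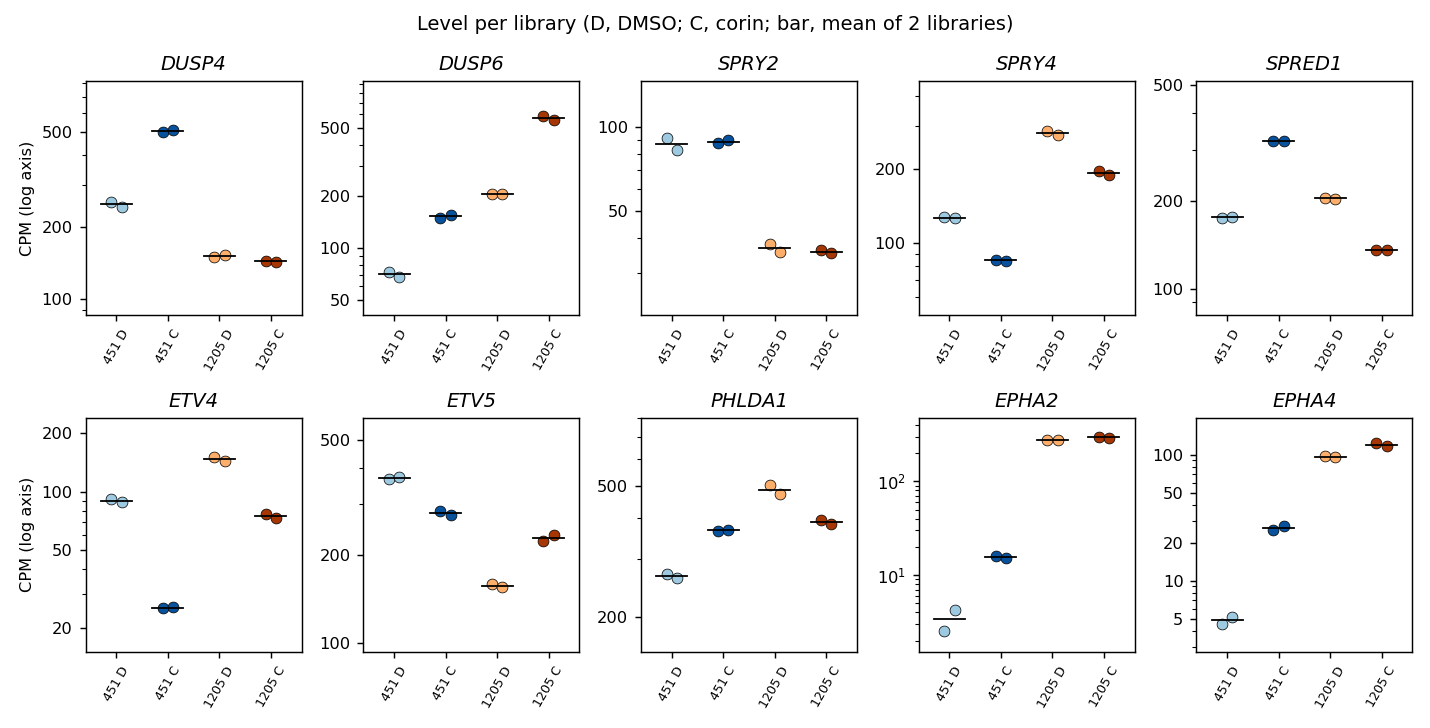
CPM of each member in every library on a log axis whose range differs by panel, with 451Lu-R in blue, 1205Lu-R in orange and brown, D for DMSO, C for corin and a bar at the mean of 2 libraries. The treatments overlap within a line only for *SPRY2*, and *EPHA2* and *EPHA4* rise from 3.38 and 4.83 CPM in 451Lu-R with DMSO. How many of all genes lack such an overlap was not counted, so its absence does not set the members apart. As background, edgeR called 79.9% of tested genes with corin for 451Lu-R, against 78.3% for 1205Lu-R (adjusted p under 0.05).

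With DMSO, 7 members were higher in 1205Lu-R than in 451Lu-R and 3 were lower, against a background of 82.5% of 14104 genes called (41.0% higher and 41.5% lower). With corin, 6 were higher and 4 lower, against 79.2% of 15363 genes (39.0% higher and 40.2% lower). *SPRED1* was the member whose order of the lines turned. *DUSP4*, *SPRY2* and *ETV5* were lower in 1205Lu-R in both treatments, and *DUSP6*, *SPRY4*, *ETV4*, *PHLDA1*, *EPHA2* and *EPHA4* were higher in both, subject to the lost calls given for *PHLDA1*. At 2-fold or more, 4 members were higher and 2 lower in 1205Lu-R with DMSO, beside 41.4% of genes (19.6% higher and 21.8% lower). With corin 5 were higher and 3 lower at that size, beside 38.5% (18.6% higher and 19.9% lower). The median log2 difference over the members was 0.77 with DMSO and 0.63 with corin, and over all genes it was -0.01 in both. The gap between the lines was wider with corin than with DMSO for *DUSP4*, *DUSP6*, *SPRED1* and *ETV4*, and narrower for *ETV5*, *PHLDA1*, *EPHA2* and *EPHA4*.

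**Figure D3:**
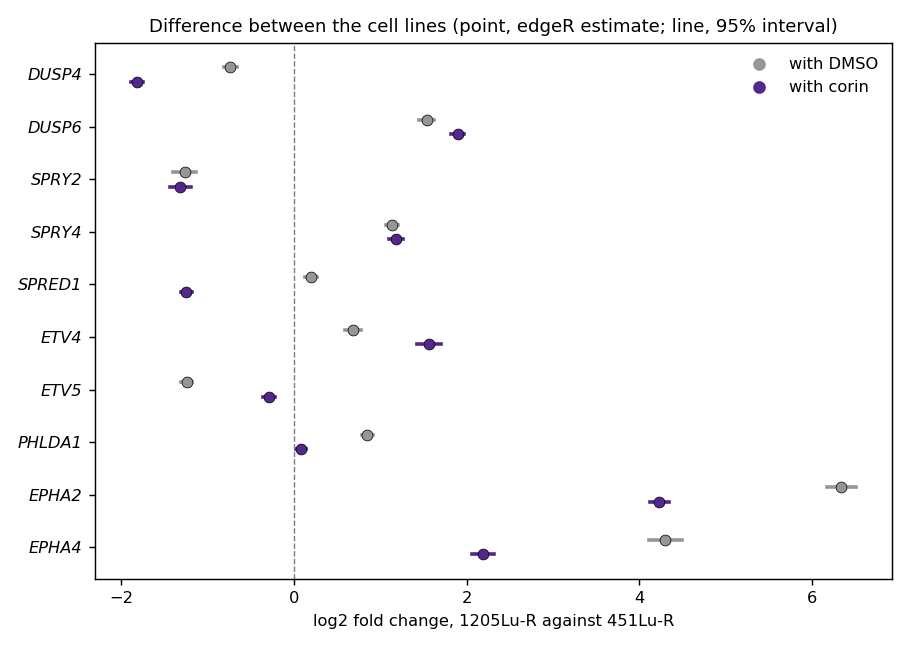
Log2 fold change of 1205Lu-R against 451Lu-R on the x axis for each member, with DMSO (grey) and with corin (purple), as the edgeR estimate with its 95% interval. *EPHA2* lies at 6.33 and 4.23, and *SPRED1* crosses 0 from 0.20 to -1.24.

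Levels of different genes were compared only after division by exonic length. On that scale *ETV5* led in 451Lu-R with DMSO, at 63.8 CPM per kilobase, and *DUSP4* led with corin, at 69.3. In 1205Lu-R, *PHLDA1* led with DMSO at 82.1 CPM per kilobase and *DUSP6* with corin at 148. *EPHA4* was lowest in 451Lu-R in the DMSO libraries, at 0.64 CPM per kilobase, with *EPHA2* next at 0.82, and *EPHA2* reached 66.0 in 1205Lu-R with DMSO. *SPRY2* was lowest in 1205Lu-R, at 11.4 with DMSO and 11.1 with corin, where *EPHA4* stood at 12.7 and 15.9.

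Over the 8 libraries, *PNPLA2*, *OAF* and *LUCAT1* had the log2 levels most like those of *DUSP6* among 14437 genes, with Pearson's r of 0.9979, 0.9972 and 0.9964. The points share 2 lines and 2 treatments, so r mostly orders 4 groups and is given as a description. *PNPLA2*, the adipose triglyceride lipase, had group means of 30.7, 42.3, 50.03 and 76.8 CPM in the order 451Lu-R with DMSO, 451Lu-R with corin, 1205Lu-R with DMSO and 1205Lu-R with corin. *LUCAT1*, a long noncoding RNA, had means of 0.17, 1.19, 3.22 and 40.3 CPM in that order. Among the members, *EPHA4* (r = 0.90) and *EPHA2* (r = 0.87) were closest to *DUSP6* and *SPRY2* (r = -0.80) was farthest. The treatments overlapped for *SPRY2*, so its value follows the order of the lines.

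Other genes of the pathway were described by lists written by hand. Among 14 other transcripts that depend on ERK, 7 rose with corin and 4 fell in 451Lu-R (median log2 fold change 0.71). In the other line 7 rose while 6 fell (median 0.19), and the median over all genes was 0.03 in each. Over all genes 41.3% were called higher and 38.6% lower in 451Lu-R, against 40.4% and 37.8% in 1205Lu-R. Some of the 14, such as *DUSP5*, *DUSP7* and *SPRED3*, are counted again in the phosphatase or the Sprouty and SPRED list below. In 451Lu-R *SPRED3*, a SPRED inhibitor, rose by 3.21 from a mean of only 0.31 to 3.10 CPM (edgeR adjusted p = 1.25e-06). It passed the filter only through the corin libraries, which fixed the direction of its call. Also in 451Lu-R, *DUSP5*, a nuclear ERK phosphatase, rose by 2.48 (adjusted p = 8.69e-14), and *MYC* fell by 2.69 (adjusted p = 1.36e-20). *CCND1* rose by 2.01 in 451Lu-R but fell by 0.28 in 1205Lu-R, and *IER3* rose by 2.17 and 0.98 in these lines. In 1205Lu-R the early response factors *FOS*, *EGR1* and *EGR2* rose by 3.56, 2.43 and 2.09. *FOS* and *EGR2* also rose in 451Lu-R, by 1.72 (adjusted p = 1.41e-16) and 1.32 (adjusted p = 4.4e-08). Of the same kind, *FOSL1* fell by 1.72 in 1205Lu-R (from a mean of 245 to 73.3 CPM, adjusted p = 6.37e-20). *EGR3* fell by 0.49 in 1205Lu-R (adjusted p = 2.45e-05) and by 1.05 in 451Lu-R (adjusted p = 2.32e-06). *EGR1* fell by 0.95 (adjusted p = 1.56e-10) in 451Lu-R, and its responses differed by 3.34 between the lines (interaction adjusted p = 2.79e-19). *SPRED3* fell by 0.76 in 1205Lu-R (difference in response -4.00, interaction adjusted p = 1.6e-08).

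The 10 MAP kinase phosphatases include *DUSP4* and *DUSP6*. Of the 9 tested in 451Lu-R, 7 rose and 2 fell (median 0.99), where 41.3% of all genes were called higher and 38.6% lower. Of 10 tested in 1205Lu-R, 7 rose, 0 fell and 3 were not called at an edgeR adjusted p under 0.05 (median 1.66). There 40.4% of all genes were called higher and 37.8% lower. Of those 7, *DUSP2* held 3 and 8 counts with DMSO and *DUSP9* 4 and 1. Both passed the filter only through the corin libraries, so their direction was fixed by the filter and they add no support. *DUSP1*, a nuclear phosphatase with a preference for p38 and JNK, went from a mean of 7.86 to 92.9 CPM in 451Lu-R (log2 fold change 3.54) and from 17.1 to 133 CPM in 1205Lu-R (2.98). *DUSP7*, close to *DUSP6* in sequence and substrate, fell by 1.03 in 451Lu-R, and its estimate was -0.10 in 1205Lu-R (adjusted p = 0.154). The 7 Sprouty and SPRED genes include 3 members, and 4 of the 7 rose and 1 fell in 451Lu-R (median 0.85), against 2 and 4 in 1205Lu-R (median -0.53). *SPRY1* rose by 2.18 and 0.95, and *SPRY3* by 2.65 and 2.92, in 451Lu-R and 1205Lu-R. With DMSO, *SPRY3* held 5 counts in each 1205Lu-R library, against 25 and 53 with corin. *SPRY3* in 1205Lu-R and *SPRED3* in 451Lu-R passed the filter only through the corin libraries, which fixed the direction of both calls.

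Of the 14 Eph receptors, *EPHA2* and *EPHA4* included, 11 rose in 451Lu-R while 2 fell, where 41.3% of all genes were called higher. Of the 11, 6 (*EPHA1*, *EPHA6*, *EPHA7*, *EPHA8*, *EPHA10* and *EPHB1*) held 3 counts or fewer in each DMSO library and passed the filter only through the corin libraries, so their direction was fixed by the filter and the count is no support for a rise of the family. The median log2 fold change was 4.42, or 2.87 with those 6 set at their bound. *EPHB2* went from a mean of 1.65 to 43.7 CPM (log2 fold change 4.68, adjusted p = 5.61e-17), *EPHB1* was at least 91.9-fold higher than a floor of 3 counts per library, and *EPHA3* fell by 1.76 from a mean of 403 CPM. In 1205Lu-R 8 receptors could be tested, of which 7 rose, *EPHA7* among them from the floor, and 1 fell (median 0.87), and *EPHB2* rose by 2.04 from a mean of 50.1 CPM. Of 8 ephrins, the ligands of these receptors, 5 rose and 2 fell in 451Lu-R (median 1.26), against 6 and 2 in the other line (median 1.72). Over all genes 41.3% were called higher in 451Lu-R and 40.4% in 1205Lu-R. *EFNA2*, with 6 and 4 counts with DMSO in 451Lu-R and 0 in both 1205Lu-R libraries, passed the filter only through corin libraries. So did *EFNA3* in 1205Lu-R, with 5 and 7 counts, and the filter fixed the direction of these calls. With a mean of at least 1 CPM required, 7 were tested in 1205Lu-R, of which 5 rose and 1 fell (median 1.54). *EFNB2* rose by 3.19 and 2.63 in the lines, and *EFNA5* fell by 1.55 and 1.50.

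Of 10 RAS, RAF, MEK and ERK genes, 5 rose and 4 fell in 451Lu-R (median 0.01), against 2 and 7 in the other line (median -0.37). Over all genes the shares called higher and lower were 41.3% and 38.6% in 451Lu-R, so the first count is near the background, and 40.4% and 37.8% in 1205Lu-R. *NRAS* fell by 0.75 (adjusted p = 6.83e-11) and 1.44 (adjusted p = 1.58e-16) in the lines. *MAP2K1*, which encodes MEK1, rose by 0.87 and 0.17 in the lines. Of 12 adaptors, exchange factors, scaffolds and GTPase activating proteins, 4 rose and 3 fell in 451Lu-R (median 0.01), against 3 and 6 in 1205Lu-R (median -0.18). *KSR1*, a scaffold for RAF and MEK, rose by 2.26 and 2.31 from means of 4.82 and 4.64 CPM, and *SHC1*, an adaptor, fell by 1.16 and 1.49. *NF1*, which encodes neurofibromin, the partner of *SPRED1*, fell by 0.89 (adjusted p = 6.76e-14) in 1205Lu-R, and its estimate was -0.01 in 451Lu-R (adjusted p = 0.875).

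**Figure D4:**
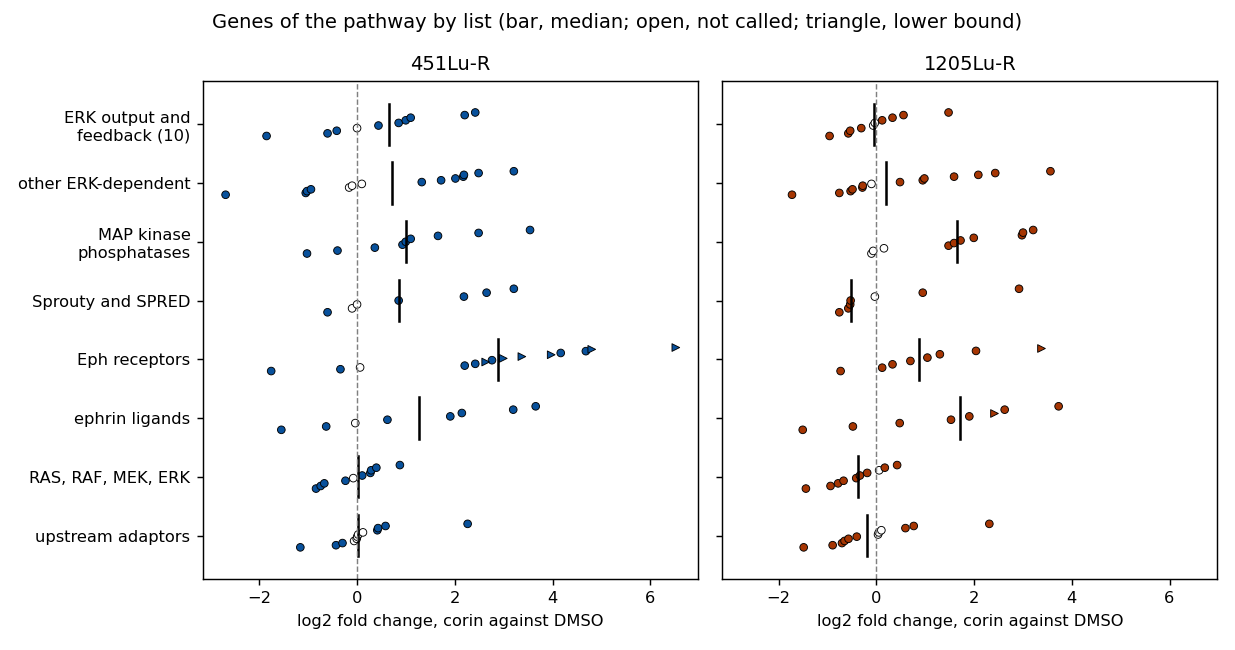
Log2 fold change with corin against DMSO on the x axis for each gene of 8 lists, in 451Lu-R and 1205Lu-R, with a bar at each list's median, open symbols for genes not called and triangles at the lower bound of genes whose DMSO libraries held 3 counts or fewer. The 10 members centre on 0.64 and -0.05, and the Eph receptors on 2.87 and 0.87.

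Members lie on 9 chromosomes, *DUSP6* and *PHLDA1* both on chromosome 12. Their gene spans run from 5151 bases (*SPRY2*) to 156176 bases (*EPHA4*), with a median of 24677, against 30740 over 18159 protein-coding genes of the table. Antisense transcripts overlapping *SPRY4*, *EPHA2*, *PHLDA1*, *DUSP6* and *EPHA4* had at most 47 estimated counts in a library. For *EPHA2* in 451Lu-R with DMSO, where the gene itself had 29 and 43 counts, *EPHA2-AS1* had at most 13 in any library.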

How the data were processed

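RNA-Seq reads were trimmed with Trimmomatic and quantified with Salmon against GENCODE v32 by the authors, who deposited estimated counts summed to genes for 8 libraries, with no normalization (versions are not given in the sources used here). The tables that the authors deposited for PLX4032 with corin against PLX4032 hold only log2 fold changes and adjusted p-values of their own comparisons and were not used. Of 34228 genes, 34052 were matched to a symbol in GENCODE v44, which also gave overlaps and exonic lengths. The 10 members, the named genes (at most the 3 largest called changes per list and comparison, at a mean of at least 1 CPM, with other list genes named after their values were seen) and the lists were chosen with earlier results of these data known.

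Counts were rounded. Each comparison used the libraries of its groups in edgeR 4.0.16 (filterByExpr, TMM factors 0.9618 to 1.053, glmQLFit, glmQLFTest, two-sided, Benjamini-Hochberg over all genes tested) in R 4.3.3, and the interaction used all 8. Genes were called at an adjusted p under 0.05. SE and 95% intervals come from the quasi-likelihood fit. The script was tested on simulated data. Log2 CPM used an offset of 0.5 count, and a group with 3 counts or fewer in each library was at the floor. Between the replicates of a group, chi-square per degree of freedom was 1.343 to 1.401 over genes. Alternatives were DESeq2 1.42.0, other scalings and filters, a replicate block, and leaving out each library. CPM per kilobase divides by all exonic bases of a gene, whichever isoform is used.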

Additional observations from a re-analysis of the deposited data

Results flagged for a closer look

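Of the 10 members, 8 are listed because their response to corin differed between 451Lu-R and 1205Lu-R by edgeR's interaction term (adjusted p under 0.05, as for 49.7% of 16062 genes). The difference, as the log2 response in 1205Lu-R minus that in 451Lu-R, was -1.09 for *DUSP4*, 0.35 for *DUSP6*, -1.46 for *SPRED1*, 0.86 for *ETV4*, 0.94 for *ETV5*, -0.78 for *PHLDA1*, -2.12 for *EPHA2* and -2.12 for *EPHA4*. For *SPRED1*, *ETV5* and *PHLDA1* the response was called in opposite directions in the lines. For *DUSP6* and *ETV4* the direction was shared and the size differed. For *EPHA2* and *EPHA4* the DMSO level of 451Lu-R was 3.38 and 4.83 CPM against 273 and 96.2 CPM in 1205Lu-R, and the part of that start in the difference was not tested.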

How the results depend on the processing

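Across the alternatives run for single members (DESeq2, RLE size factors, library totals, no filter, a minimum mean of 1 CPM, 1 fit of all 8 libraries, the replicate block and leaving out each library), 575 values kept their side of the threshold, 2 gained a call, 3 lost one and 0 called values changed sign. Among values not called, signs varied, as for *SPRY2* with corin in 451Lu-R (-0.07 to 0.06 without 1 library) and the difference in response of *SPRY4* (-0.01 to 0.09). Those 5 are given beside *DUSP4*, *SPRY4* and *PHLDA1* in the results. Counts of members changed by over 1.5 times when 2-fold was also required. With corin they became 3 higher and 1 lower in 451Lu-R and 1 higher and 0 lower in 1205Lu-R. Between the lines they became 4 higher in 1205Lu-R than 451Lu-R with DMSO, and 0 higher by the interaction term. The cause was not tested, other than that this rule is stricter by construction. Replicate numbers are shared by the groups but did not pair the libraries (r of deviations -0.0298 for 451Lu-R, 0.0182 for 1205Lu-R). Fitted with the replicate block, 6 members were higher and 3 lower in 451Lu-R with corin, 4 and 4 in 1205Lu-R, and no call on a member changed. Library totals in place of TMM moved the median over all genes by -0.0981 in 451Lu-R, 0.0749 in 1205Lu-R and 0.211 for the interaction. Depth limits values from low counts in 451Lu-R with DMSO, such as *EPHA2* and *EPHA4* among the members and *SPRED3* and the Eph receptors at the floor among the other genes. With 2 libraries per group, a fit that leaves out 1 takes its spread from the remaining libraries.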
